A study of Mus musculus with 24 samples.

Results

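Cytochrome P450 enzymes are heme-containing monooxygenases, encoded in the mouse by genes with symbols that start with Cyp. The 100 members described here were all genes with such a symbol followed by a family number, not marked as a pseudogene and with at least 1 protein-coding transcript, out of 53392 genes quantified. The rule itself uses no measured value. By family and textbook role the members comprised 3 family 1 genes, 20 family 4 fatty acid omega-hydroxylases, 23 genes of subfamilies 2C and 2J, 25 other family 2 genes, 9 genes of subfamily 3A, 3 vitamin D hydroxylases, 3 retinoic acid hydroxylases, 6 steroid hormone enzymes, 7 sterol and bile acid enzymes and Cyp20a1, which stands alone. Every one of the 100 members was found in the gene annotation.

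Most P450 enzymes sit in the endoplasmic reticulum and take electrons from the reductase Por, while a mitochondrial group takes them from ferredoxin. In the kidney they turn arachidonic acid into 20-hydroxyeicosatetraenoic acid (family 4) and epoxides (subfamilies 2C and 2J), both of which act on salt transport and vessel tone, and they make and destroy the active form of vitamin D in the proximal tubule. Several rodent P450 genes are known as androgen-dependent in kidney and as targets of PPARA, a nuclear receptor that senses fatty acids, in liver.

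RNA came from kidneys of FVB mice of both sexes with no injury (sham) or with ischaemic acute kidney injury, and was taken either from proximal tubules collected by microdissection or from cells held on CD31 microbeads after enzymatic digestion, labelled endothelial. No transgene, drug or other genotype is named for any group. Sham females, sham males, injured females and injured males gave 3 tubule libraries each, and the endothelial groups gave 2, 3, 3 and 3. The labels do not state the age of the mice or the time after injury, and count 3 mice of either sex for every group. Sham male tubule sample 3 was sequenced as 2 libraries, which were added, so 24 libraries became 23 samples (12 tubule and 11 endothelial).

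Each sample held between 32592452 and 54906864 estimated reads, of which P450 genes took 0.507% to 1.15%. The endothelial samples carried proximal tubule RNA as well as endothelial RNA. On a common scale of normalised counts-per-million values (CPM), 12 proximal tubule markers summed to 6584 to 22040 in endothelial samples against 9417 to 23930 in tubule samples. The 12 endothelial markers summed to 513 to 2276 against 179 to 487, and 4 podocyte markers to 656 to 1568 against 20.6 to 383. These are bulk samples, in which fewer cells of a type and less RNA per cell cannot be told apart. The endothelial samples are therefore called CD31 isolates below.

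Transcripts-per-million values (TPM), which divide by transcript length, were used for levels between genes. Cyp4b1, a family 4 enzyme that also activates lung and kidney toxins, had the highest mean over the tubule groups, followed by the renal arachidonic acid epoxygenase Cyp2j5, the ethanol oxidase Cyp2e1, the omega-hydroxylases Cyp4a14 and Cyp4a10, the lanosterol demethylase Cyp51, and the testosterone hydroxylases Cyp2d9 and Cyp2a4. These 8 genes held 73.6% to 87.6% of all P450 TPM in a tubule sample. The list was short. Only 31 of 100 members reached a mean of 1 TPM over the tubule groups and 17 reached 10 TPM, while 17 members were listed at 0 TPM in every library of the series. In the CD31 isolates, 31 and 17 members passed the same marks, the 15 highest members were the same 15, and 6 of the 8 highest were shared.

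The order of the leading genes was not the same in the sexes. In sham male tubules (n = 3) Cyp4b1 stood at 1304 ± 99.9 TPM (mean ± SD), Cyp2e1 at 653 ± 34.3, Cyp2j5 at 373 ± 41.4, Cyp2d9 at 160.03 ± 81.9, Cyp51 at 159.6 ± 26.4, Cyp2a4 at 139.6 ± 22.2 and Cyp4a10 at 111 ± 13.7, with Cyp4a14 at 17.2 ± 7.63. In sham female tubules (n = 3) Cyp4a14 stood at 316 ± 118, Cyp2j5 at 308 ± 44.7, Cyp4a10 at 276 ± 84.7, Cyp4b1 at 218 ± 14.5 and Cyp51 at 115 ± 21.3, and Cyp2e1, Cyp2a4 and Cyp2d9 at 30.8 ± 19.8, 26.8 ± 8.63 and 1.85 ± 1.89. In females the libraries of Cyp4a14, Cyp2j5 and Cyp4a10 overlapped, as did those of Cyp4a10 and Cyp4b1, so the order of these genes is not resolved. In males the same holds for Cyp2d9, Cyp51, Cyp2a4 and Cyp4a10.

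The summed P450 TPM was 3225 to 3554 in sham male tubules and 1467 to 2027 in sham female tubules. It was 1958 to 2372 in injured males and 1448 to 1931 in injured females. Sham males lay above all other tubule samples, and the female groups overlapped. In the CD31 isolates the ranges were 2158 to 3656 in sham males, 1901 to 2229 in sham females, 1497 to 2053 in injured males and 1781 to 3138 in injured females, and the sham male, sham female and injured female ranges overlapped one another.

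**Figure D1:**
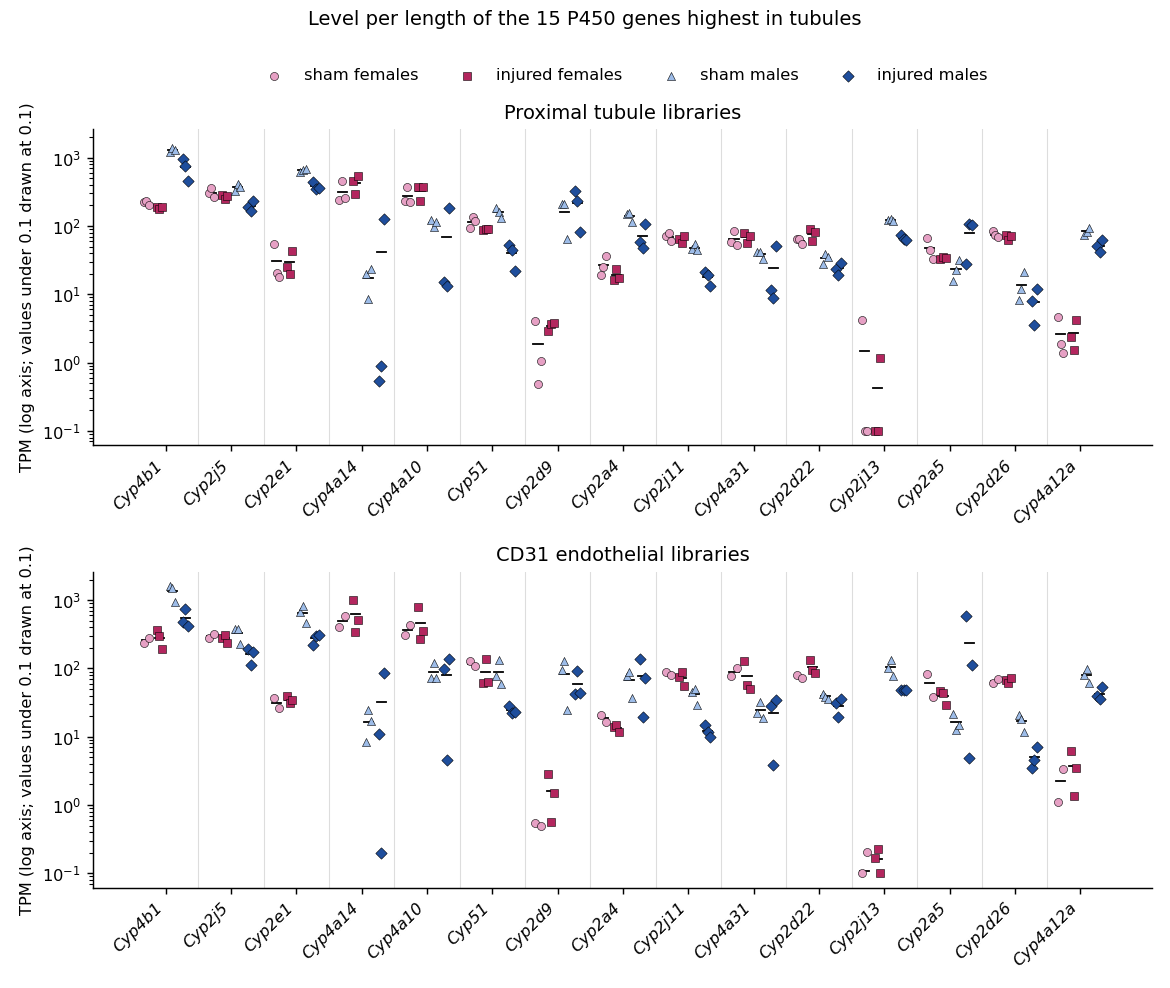
Levels of the leading P450 genes in TPM (log axis) in each group, one point per library and a line at the group mean. The points of sham and injured males lie high for Cyp4b1, Cyp2e1 and Cyp2d9 and those of females high for Cyp4a14, in tubules and in CD31 isolates.

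The sex difference in sham tubules was read first, since it gives the baseline on which injury acts. Of 51 members with enough reads to be tested, 9 were higher and 3 lower in males (12, 23.5% of members), beside 5.80% of all 18369 genes tested in the comparison (3.24% higher, 2.56% lower). The test was edgeR's quasi-likelihood test with Benjamini-Hochberg adjustment over all genes, called at an adjusted p under 0.05. The median log2 difference of the 51 members was -0.06, and of all genes 0.01. By role, the calls fell on 5 of 15 tested family 4 genes (4 higher, 1 lower), 5 of 11 other family 2 genes (3 higher, 2 lower), 1 of 11 genes of subfamilies 2C and 2J (higher) and 1 of 5 sterol and bile acid genes (higher).

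Among family 2 genes of oxidative metabolism, Cyp2e1 read 2059, 2046 and 2167 CPM in sham males 1 to 3 and 164, 59.4 and 56.0 CPM in sham females 1 to 3. The groups lay far apart, although sham female 1 read higher than the other females. The log2 difference was 4.49 ± 0.47 (SE; edgeR adjusted p = 0.000214). Cyp2d9, which hydroxylates testosterone in mouse liver, read 300.3, 270.1 and 98.2 CPM in males and 5.97, 1.33 and 1.21 CPM in females, a log2 difference of 6.31 ± 0.83 (edgeR adjusted p = 0.000993). Sham male 3 was the lowest male, still above every female.

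Cyp2d26 and Cyp2d22, of the same Cyp2d cluster on chromosome 15 but not next to Cyp2d9, went the other way. Cyp2d26 read 26.4, 35.5 and 61.8 CPM in sham males and 259, 207 and 199.6 CPM in sham females, a log2 difference of -2.43 ± 0.33 (edgeR adjusted p = 0.00113). Cyp2d22 read 48.9, 57.6 and 66.1 CPM in males and 119.9, 119 and 95.0 CPM in females, a log2 difference of -0.95 ± 0.16 (edgeR adjusted p = 0.00489). For both genes no male reached the lowest female. Cyp2d9 lies at chr15:82433437-82456845 on the plus strand, Cyp2d22 at chr15:82370527-82380260 and Cyp2d26 at chr15:82790101-82794294 on the minus strand (GRCm38).

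Cyp2j13, a 2J gene close to the Cyp2j5 epoxygenase on chromosome 4, read 545, 543 and 537 CPM in sham males and 19.3, 0.237 and 0.467 CPM in sham females. The 3 males were nearly equal, while sham female 1 stood apart from the other females. The log2 difference was 6.36 ± 1.53 (edgeR adjusted p = 0.0319). Cyp7b1, which hydroxylates oxysterols and some steroids, read 12.9, 22.97 and 0.430 CPM in sham males and 0.247, 0.687 and 0 CPM in sham females. Its groups overlapped, because sham male 3 lay below sham female 2, although the fit called it (log2 5.24 ± 1.25, edgeR adjusted p = 0.0311). Both calls were lost when single sham libraries were left out, Cyp2j13 in 4 and Cyp7b1 in 4 of the cases.

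The other calls were Cyp4f16, a family 4 gene (log2 -1.35 ± 0.29, edgeR adjusted p = 0.0197), at 1.97 to 4.78 CPM in males and 7.56 to 8.17 CPM in females, and Cyp4f15. Cyp4f15 had no read in any sham female tubule library and 0.303 to 0.476 CPM in sham males, which is at least 14.6-fold higher against a floor of 3 counts over the female group. Cyp2b10, a family 2 gene induced in liver through the receptor Nr1i3, was also at 0 in all sham females and at 3.03, 2.12 and 0.404 CPM in sham males, at least 68.5-fold higher, but did not pass (edgeR adjusted p = 0.102). The difference of these low genes rests on few reads.

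**Figure D2:**
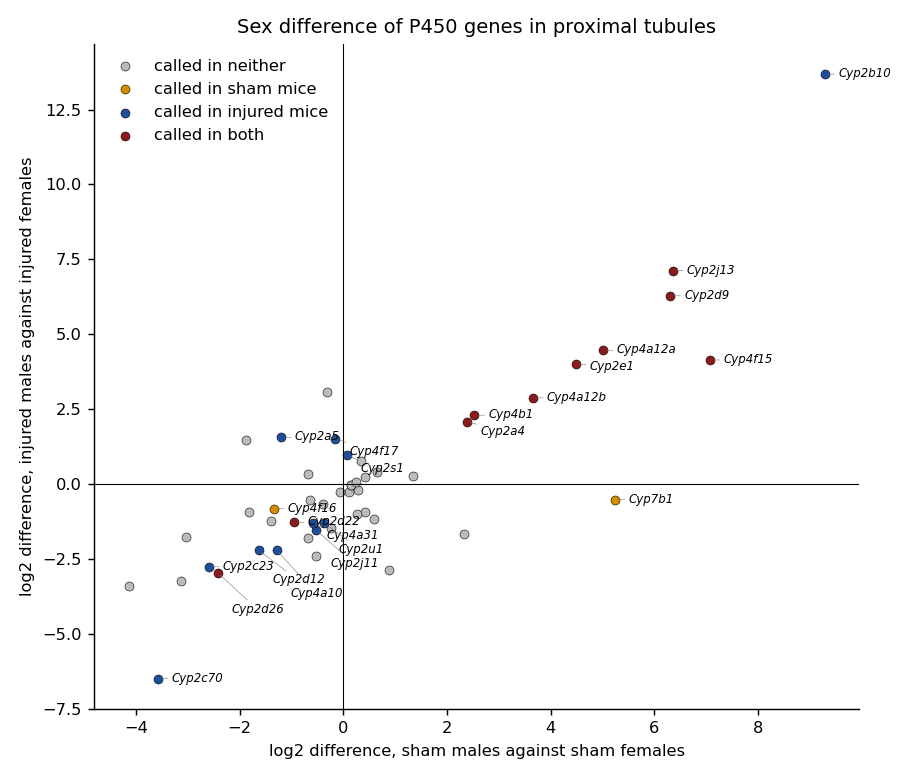
Log2 difference between males and females for each tested P450 gene in tubules, sham on the x axis and injured on the y axis, coloured by the comparison that called it. Cyp4a12a, Cyp4a12b, Cyp4b1, Cyp2a4, Cyp2d9, Cyp2e1, Cyp2j13 and Cyp4f15 were higher in males and Cyp2d22 and Cyp2d26 lower in both; the 2 axes share no samples.

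In injured tubules the sex difference took in more members. Of 51 tested, 12 were higher and 9 lower in males (21, 41.2% of members), beside 23.3% of all genes tested (12.8% higher, 10.5% lower). The median log2 difference of the members was -0.52 and of all genes -0.06. Calls in both conditions numbered 10, which is 83.3% of the sham calls and 47.6% of the injured calls, and all 10 had the same direction. No such share was computed over all genes, and both comparisons come from the same fit with a shared spread. Leaving out any 1 injured female or injured male 2 gave 12 or 13 calls.

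The male-high genes kept wide gaps after injury. Cyp2e1 read 1586, 1358 and 942 CPM in injured males and 64.9, 55.4 and 121 CPM in injured females (log2 4.01 ± 0.46, edgeR adjusted p = 0.000413). Cyp2d9 read 475, 369.9 and 90.01 CPM against 3.40, 4.43 and 4.18 CPM (log2 6.28 ± 0.82, edgeR adjusted p = 0.000872). Cyp2j13 read 339, 312 and 222 CPM against 0.488, 0.242 and 5.51 CPM (log2 7.13 ± 1.59, edgeR adjusted p = 0.0103). None of these groups overlapped, and injured male 3 was the lowest male for each of these 3 genes.

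Cyp2b10 gave the widest gap. It read 63.6, 51.5 and 1.57 CPM in injured males, with injured male 3 far below the other injured males, and had no read in any injured female tubule library. The level was at least 1830-fold higher in males (edgeR adjusted p = 0.0079). Against sham males Cyp2b10 did not pass in the fit on all libraries (log2 4.39 ± 1.27, edgeR adjusted p = 0.0505), and did without injured male 3 (log2 4.96 ± 0.67, edgeR adjusted p = 0.000915).

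Of the female-high genes, Cyp2d26 read 25.4, 13.8 and 29.1 CPM in injured males and 179, 162 and 189 CPM in injured females (log2 -2.96 ± 0.33, edgeR adjusted p = 0.000393). Cyp2d22 differed by log2 -1.28 ± 0.16 (edgeR adjusted p = 0.000732). Cyp2d12, another gene of that cluster, read 9.51, 6.11 and 1.27 CPM in injured males and 27.8, 24.2 and 25.8 CPM in injured females (log2 -2.21 ± 0.49, edgeR adjusted p = 0.0103). Each of these pairs of groups was separate. Of the 2C and 2J genes, the epoxygenase Cyp2c23 read 0.334, 0.190 and 3.57 CPM against 9.83, 8.28 and 10.1 CPM (log2 -2.77 ± 0.87, edgeR adjusted p = 0.0412), and Cyp2j11 read 81.0, 80.2 and 37.6 CPM against 185, 170.4 and 223 CPM (log2 -1.54 ± 0.25, edgeR adjusted p = 0.00221). Cyp2u1, a fatty acid hydroxylase, read 1.44, 2.17 and 4.49 CPM against 6.96, 6.12 and 6.99 CPM (log2 -1.30 ± 0.37, edgeR adjusted p = 0.0266). Injured male 3 was the highest male for Cyp2c23 and Cyp2u1 and the lowest for Cyp2j11. Cyp2c70, which makes muricholic acids in mouse liver, was at 0 in all injured males and at 0.102 to 0.450 CPM in injured females, at least 11.7-fold lower. Cyp4f17, Cyp2s1, Cyp2a5 and Cyp4f15 were the remaining male-high calls and Cyp4a31 and Cyp4a10 the remaining female-high calls. Leaving out any single injured female, injured male 1 or injured male 2 ended the calls of Cyp2c23, Cyp2c70, Cyp2s1, Cyp2u1, Cyp4a10, Cyp4a31 and Cyp4f15. Some of these fits also ended those of Cyp2a5 and Cyp4f17. Of the 21 calls between injured males and females, 8 held under every alternative.

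Markers of other cells also differed between injured males and injured females. The 7 thick ascending limb and distal markers summed to 2017 to 5137 CPM in injured males and 5587 to 7255 CPM in injured females, and the 7 neutrophil markers to 4.53 to 31.4 CPM and at most 3.62 CPM. Proximal tubule markers summed to 8842 to 12230 CPM and 14150 to 16800 CPM. With a distal marker score in the fit, Cyp2d12 reached log2 0.037 (edgeR adjusted p = 0.976), while 17 members were called in all. The score did not overlap between injured males and injured females, so this fit cannot tell sex and the score apart. The part of the other marker lists in these sex differences was not tested.

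Of the 20 family 4 genes, 10 lie side by side on chromosome 4, in the order Cyp4x1, Cyp4a29, Cyp4a12a, Cyp4a12b, Cyp4a30b, Cyp4a14, Cyp4a10, Cyp4a31, Cyp4a32 and Cyp4b1, from 115106323 to 115647723 (GRCm38). Within this stretch the sex difference came in blocks of opposite sign. Toward the lower coordinates, Cyp4a12a, the main producer of 20-hydroxyeicosatetraenoic acid in the mouse, and its near copy Cyp4a12b were higher in sham males (log2 5.01 ± 0.51, edgeR adjusted p = 0.000194, and 3.66 ± 0.52, edgeR adjusted p = 0.00164). After injury the differences were 4.46 ± 0.49 (edgeR adjusted p = 0.000358) and 2.88 ± 0.50 (edgeR adjusted p = 0.00321). Injured males read 261, 235 and 231 CPM for Cyp4a12a, below all sham males (360.4 to 447 CPM), and injured females read 8.97, 6.10 and 17.9 CPM. The 2 genes share 41.3% of the 75-base windows of Cyp4a12b, so reads could be split between them. Their summed TPM was 79.0 to 101 in sham males, 45.2 to 75.7 in injured males and at most 5.59 in the female tubules.

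At the upper end of the stretch, Cyp4b1 read 3956, 4344 and 4306 CPM in sham males and 753, 724 and 706 CPM in sham females (log2 2.53 ± 0.30, edgeR adjusted p = 0.000507). After injury it read 3521, 3054 and 1223 CPM in males and 516, 502 and 569 CPM in females (log2 2.30 ± 0.30, edgeR adjusted p = 0.000823). Injured male 3 was the lowest male and lay above all females.

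Between them lie the PPARA-responsive hydroxylases, which went the other way. Cyp4a14 read 1168, 1995 and 1296 CPM in sham females and 99.1, 39.9 and 114 CPM in sham males. In injured females it read 1760.1, 1196 and 2306 CPM, and in injured males 2.83, 5.23 and 487 CPM. The sexes did not overlap in either condition. Among injured males, sample 3 read 487 CPM where the other samples were below every sham male. Cyp4a14 did not pass in sham mice (log2 -4.14 ± 1.46, edgeR adjusted p = 0.138) or injured mice (log2 -3.41 ± 1.41, edgeR adjusted p = 0.0998).

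Cyp4a10 had the same pattern, with 928, 1402 and 939.6 CPM in sham females, 513, 370.4 and 461 CPM in sham males, 1203, 807 and 1334 CPM in injured females and 66.9, 63.6 and 588 CPM in injured males. Again injured male 3 stood apart, here above every sham male. It passed between injured males and females (log2 -2.22 ± 0.71, edgeR adjusted p = 0.0427) and not between sham males and females (log2 -1.28 ± 0.69, edgeR adjusted p = 0.354). Cyp4a31 read 27.8, 22.6 and 84.9 CPM in injured males and 91.4 to 121 CPM in injured females (log2 -1.29 ± 0.40, edgeR adjusted p = 0.0376). Cyp4a32 read 0.720, 1.17 and 6.47 CPM against 7.27 to 11.2 CPM (log2 -1.81 ± 0.64, edgeR adjusted p = 0.061). The summed TPM of Cyp4a10, Cyp4a14, Cyp4a31 and Cyp4a32 was 27.3, 23.2 and 361 in injured males 1 to 3, 149 to 185 in sham males, 527 to 915 in sham females and 583 to 974 in injured females.

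**Figure D3:**
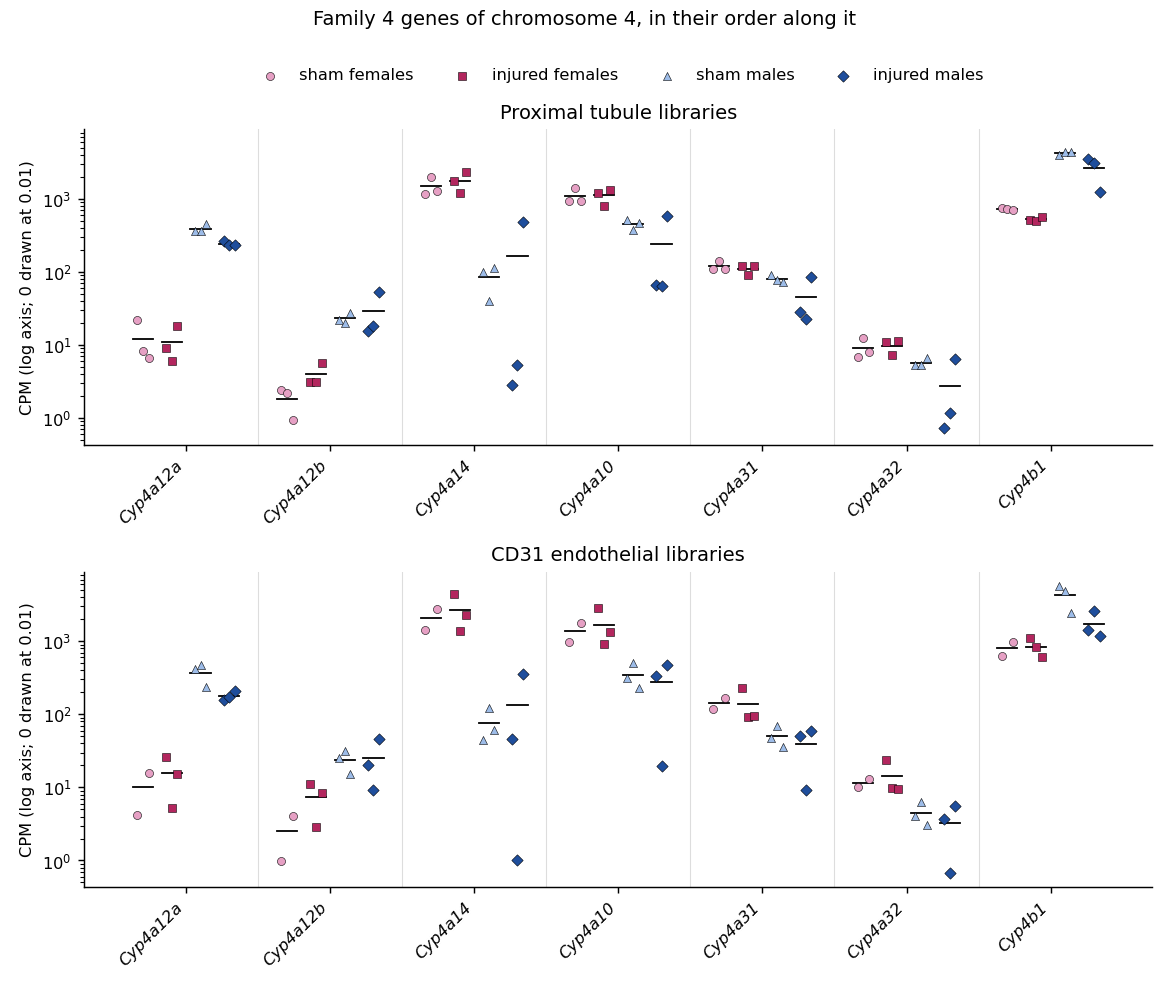
Normalised CPM (log axis) of the family 4 genes named from the chromosome 4 stretch, in order along the chromosome, one point per tubule (top) or CD31 isolate (bottom) library and a line at each group mean. Cyp4a12a, Cyp4a12b and Cyp4b1 are higher in males and Cyp4a14 and Cyp4a10 in females, and in tubules 1 injured male library (sample 3, 487 CPM of Cyp4a14) lies apart from the other injured males.

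The fit without injured male 3 changed the reading of this block. Without it, Cyp4a14 differed between the sexes in sham tubules by log2 -4.14 ± 0.43 (edgeR adjusted p = 0.000132) and in injured tubules by -8.76 ± 0.65 (edgeR adjusted p = 2.46e-06). Cyp4a10 differed by -1.28 ± 0.21 (edgeR adjusted p = 0.00263) and -4.10 ± 0.28 (edgeR adjusted p = 1.54e-06). The count of members called rose from 12 to 21 in sham mice (10 higher, 11 lower) and from 21 to 26 in injured mice (12 higher, 14 lower). Over all genes, 13.6% and 44.1% were then called. Each library was left out in turn, and injured male 3 is singled out here after its values were seen. The labels carry no remark on it.

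Cyp2a4 and Cyp2a5 form another pair of near copies, on chromosome 7. Cyp2a4 hydroxylates testosterone and Cyp2a5 coumarin. Cyp2a4 lies at chr7:26307169-26315088 and Cyp2a5 at chr7:26835305-26843548, both on the plus strand. Their longest protein-coding transcripts were 98.2% identical over the aligned stretch, and 77.9% and 77.7% of their 75-base windows occurred in no other gene, so part of the reads could be assigned to either. The promoters below are shown because the pair differed in direction between the groups although these windows are almost the same. They run from 250 bases before to 50 after the RefSeq start (GRCm38.p6), at chr7:26306942-26307241 for Cyp2a4 and chr7:26835089-26835388 for Cyp2a5, both on the plus strand. Of 301 aligned positions 294 were identical, with 5 mismatches and 2 gap bases, and capitals mark the positions that differ.
Cyp2a4: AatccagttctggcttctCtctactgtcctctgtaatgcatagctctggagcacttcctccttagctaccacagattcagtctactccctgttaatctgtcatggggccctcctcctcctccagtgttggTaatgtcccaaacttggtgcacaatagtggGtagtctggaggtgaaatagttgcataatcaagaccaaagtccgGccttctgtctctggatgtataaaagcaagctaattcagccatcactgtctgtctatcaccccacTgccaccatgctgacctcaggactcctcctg
Cyp2a5: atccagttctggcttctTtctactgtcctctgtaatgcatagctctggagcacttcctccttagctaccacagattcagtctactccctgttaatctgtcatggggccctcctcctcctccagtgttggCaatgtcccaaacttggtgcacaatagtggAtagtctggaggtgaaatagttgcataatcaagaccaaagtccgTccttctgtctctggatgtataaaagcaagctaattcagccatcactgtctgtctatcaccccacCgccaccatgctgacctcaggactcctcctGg

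Both windows hold TATAAA. Of 77 members with a RefSeq promoter, 33 (42.9%) held these letters on either strand, against 13.6% of 32851 promoters of the same length. The letters AGAACA, part of the sequence that the androgen receptor binds, were in 20 of 77 members (26.0%) and 19.0% of all promoters, among them Cyp4b1 and Cyp2d26. A match is a description of these letters only.

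Cyp2a4 read 501, 489 and 374 CPM in sham males and 63.6, 75.1 and 122 CPM in sham females (log2 2.39 ± 0.27, edgeR adjusted p = 0.000377). Cyp2a5 read 23.7, 30.4 and 46.8 CPM in sham males and 100.4, 72.2 and 59.2 CPM in sham females, with separate groups but no call (log2 -1.20 ± 0.44, edgeR adjusted p = 0.151). After injury Cyp2a4 read 211, 185 and 283 CPM in males and 43.1, 65.5 and 51.6 CPM in females (log2 2.08 ± 0.27, edgeR adjusted p = 0.000763). The gap in Cyp2a4 was thus present in both conditions. Cyp2a5 in injured mice read 49.4, 226 and 139 CPM in males and 46.3, 44.8 and 50.02 CPM in females, which overlapped at injured male 1 (log2 1.55 ± 0.44, edgeR adjusted p = 0.027).

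Against sham males, injured males had less Cyp2a4 (log2 -1.01 ± 0.26, edgeR adjusted p = 0.0236) and more Cyp2a5 (log2 2.04 ± 0.45, edgeR adjusted p = 0.0131), and neither pair of groups overlapped. Females had values of -0.70 ± 0.26 (edgeR adjusted p = 0.303) and -0.71 ± 0.43 (edgeR adjusted p = 0.631). The difference between the sexes in the injury response of Cyp2a5 was 2.75 ± 0.62 and did not pass (edgeR adjusted p = 0.0623). Without injured male 3 it was 2.75 ± 0.66 and passed (edgeR adjusted p = 0.00862).

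Injury in male tubules changed 10 of 51 tested members, 5 higher and 5 lower (19.6%), beside 19.0% of all genes tested (10.6% higher, 8.43% lower), so the share of P450 genes called was that of the background. Their median log2 change was -0.32 and that of all genes -0.03. The calls were spread over roles, with 1 of 3 vitamin D genes, 1 of 5 sterol and bile acid genes, 3 of 11 genes of subfamilies 2C and 2J, 4 of 11 other family 2 genes and 1 of 15 family 4 genes. The count was 5 without injured male 2 and 21 without injured male 3, where 42.5% of all genes were called. Proximal tubule markers summed to 19900 to 22990 CPM in sham males and 8842 to 12230 CPM in injured males, with 9 of 12 called lower, and their part in the falls below was not tested. Neutrophil markers summed to at most 1.86 CPM in sham males and 4.53 to 31.4 CPM in injured males, and their part was not tested.

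Cyp24a1, the hydroxylase that inactivates vitamin D, had the largest rise of the 10. It read 2.47, 8.62 and 12.01 CPM in sham males and 209.9, 139 and 137 CPM in injured males (log2 4.40 ± 0.88, edgeR adjusted p = 0.00939). All injured males lay far above all sham males, and Cyp24a1 was the only one of the 10 genes called under all 16 alternatives run for this comparison. In females it read 9.83, 60.1 and 15.2 CPM in sham mice and 92.9, 70.9 and 13.0 CPM in injured mice, which overlapped (log2 1.05 ± 0.78, edgeR adjusted p = 0.743). The difference in response between the sexes was 3.34 ± 1.12 (edgeR adjusted p = 0.147).

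The other vitamin D genes gave no call. Cyp27b1, which makes the active hormone, read 3.05, 2.52 and 1.69 CPM in sham males and 5.25, 3.31 and 3.20 CPM in injured males, with injured values above all sham values (log2 0.69 ± 0.44, edgeR adjusted p = 0.286). Cyp2r1, the liver-type activating hydroxylase, stayed between 0.231 and 1.61 CPM in all tubule libraries (log2 -0.71 ± 0.55, edgeR adjusted p = 0.385). Of 5 genes through which phosphate and calcium control these hydroxylases, 1 was higher and 2 were lower. The FGF23 co-receptor Kl was lower (log2 -1.38 ± 0.19, edgeR adjusted p = 0.00196), as was the calcium receptor Casr (-0.58 ± 0.18, edgeR adjusted p = 0.0451), and the FGF receptor Fgfr1 was higher (0.68 ± 0.21, edgeR adjusted p = 0.0428).

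**Figure D4:**
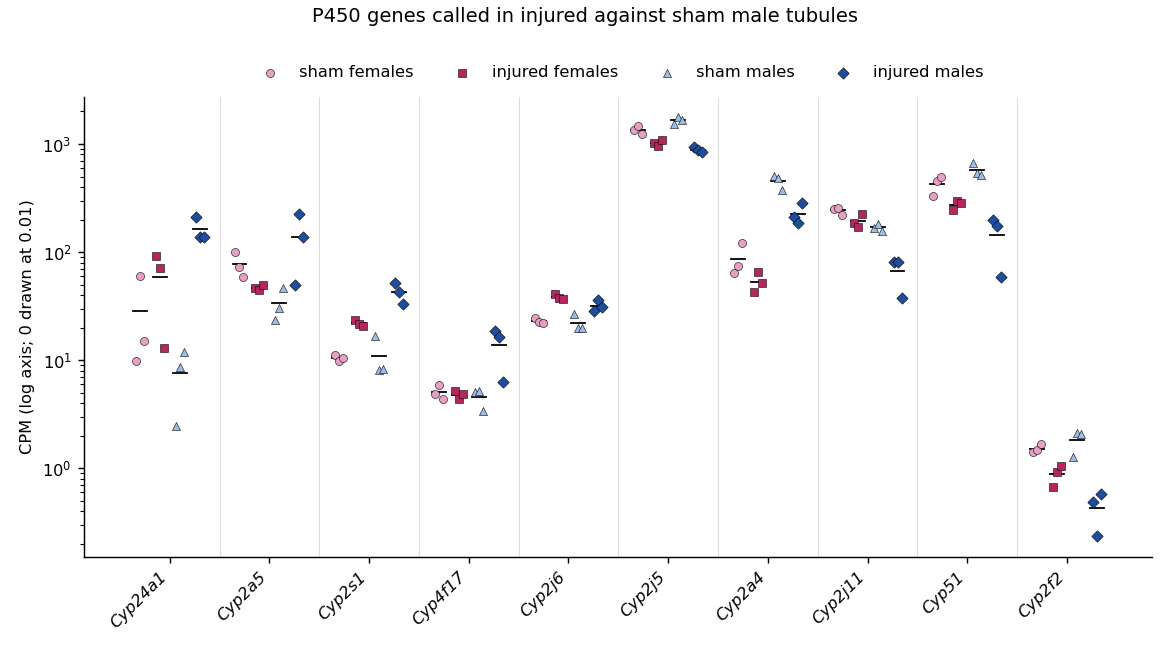
Normalised CPM (log axis) of the P450 genes called with injury in male tubules, one point per tubule library in each of the 4 groups and a line at each group mean. Cyp24a1 reads 2.47 to 12.01 in sham males and 137 to 209.9 in injured males, while its female groups overlap.

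Cyp51, which removes a methyl group from lanosterol on the way to cholesterol, read 669, 536 and 511 CPM in sham males and 196, 174 and 58.5 CPM in injured males (log2 -2.002 ± 0.357, edgeR adjusted p = 0.0056). The groups were separate, with injured male 3 lowest. In females it read 332, 451 and 497 CPM before and 243, 299.5 and 282 CPM after injury, also separate but without a call (log2 -0.63 ± 0.35, edgeR adjusted p = 0.569). Of 14 other genes of cholesterol synthesis and uptake, 2 were higher and 5 lower in injured males, among them Nsdhl (-0.83 ± 0.14, edgeR adjusted p = 0.00383), Idi1 (-1.77 ± 0.32, edgeR adjusted p = 0.00574) and, in the opposite direction, Msmo1 (2.02 ± 0.48, edgeR adjusted p = 0.018). The genes around Cyp51 in the pathway thus did not all move one way. Cyp7b1, next in sterol breakdown, did not pass (log2 -3.22 ± 1.11, edgeR adjusted p = 0.0629).

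The epoxygenase group held calls in both directions. Cyp2j5 lay between 1528 and 1761 CPM in sham males and between 842 and 942 CPM in injured males (log2 -0.90 ± 0.12, edgeR adjusted p = 0.00148). In females it read 1244 to 1480.2 CPM before and 958 to 1088 CPM after injury (log2 -0.41 ± 0.12, edgeR adjusted p = 0.186). Both sexes had separate groups. Cyp2j11 read 169, 183 and 157 CPM in sham males and 81.0, 80.2 and 37.6 CPM in injured males (log2 -1.35 ± 0.25, edgeR adjusted p = 0.00607). Cyp2j6 read 27.1, 19.8 and 19.7 CPM and 28.3, 36.4 and 30.8 CPM (log2 0.52 ± 0.16, edgeR adjusted p = 0.0423). Cyp2j6 was the smallest rise of the 10 and was lost in 4 of the fits that left out 1 library.

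The remaining calls were low or moderate in level. Cyp2s1, a family 2 enzyme found mainly outside the liver, read 16.6, 8.09 and 8.27 CPM in sham males and 51.4, 42.5 and 33.2 CPM in injured males (log2 1.95 ± 0.27, edgeR adjusted p = 0.00185), with separate groups. Cyp4f17, a family 4 gene, read 5.11, 5.19 and 3.36 CPM and then 18.5, 16.5 and 6.29 CPM (log2 1.59 ± 0.36, edgeR adjusted p = 0.014). Injured male 3 again lay nearest the sham values. Cyp2f2, known from naphthalene toxicity in lung club cells, was at 1.27 to 2.14 CPM in sham males and 0.238 to 0.576 CPM in injured males (log2 -2.07 ± 0.44, edgeR adjusted p = 0.0118).

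Several abundant members did not pass with injury in males. Cyp4b1 changed by log2 -0.69 ± 0.29 (edgeR adjusted p = 0.107), Cyp2e1 by -0.69 ± 0.41 (edgeR adjusted p = 0.247), Cyp4a10 by -0.90 ± 0.68 (edgeR adjusted p = 0.371) and Cyp4a14 by 0.97 ± 1.30 (edgeR adjusted p = 0.632). The last value is positive because 1 library holds almost all of the reads. Without injured male 3, Cyp4a10 was lower by log2 -2.78 ± 0.26 (edgeR adjusted p = 1.33e-05), Cyp4a31 by -1.66 ± 0.18 (edgeR adjusted p = 2.8e-05), Cyp4a14 by -4.38 ± 0.54 (edgeR adjusted p = 7.03e-05) and Cyp4a32 by -2.59 ± 0.36 (edgeR adjusted p = 0.000155). In that fit 21 members were called, 6 higher and 15 lower, and 42.5% of all genes. The share of tested members called was close to that over all genes. The direction of Cyp4a14 with injury in males therefore differs between the fits.

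Of 12 PPARA target genes outside the P450 family, 2 were higher and 1 lower with injury in males in the fit on all libraries. The lipid droplet protein Plin2 (log2 4.23 ± 0.55, edgeR adjusted p = 0.00133) and Angptl4, an inhibitor of lipoprotein lipase (2.13 ± 0.54, edgeR adjusted p = 0.0219), were higher, and Acadm, an enzyme of fatty acid oxidation (-0.78 ± 0.17, edgeR adjusted p = 0.013), was lower. The median of the list was 0.06.

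In female tubules injury gave no call among 51 members, beside 0.0109% of all genes tested with edgeR. At an unadjusted p under 0.05 there were 7 members, 5 higher and 2 lower (13.7%), beside 11.1% of all genes. DESeq2 called 3 members and 606 of all genes. The median log2 change was 0.00, as for all genes. Cyp2j6 read 24.7, 22.8 and 21.9 CPM in sham females and 41.1, 37.8 and 36.6 CPM in injured females (log2 0.73 ± 0.16, edgeR adjusted p = 0.0913), and Cyp2s1 read 11.1, 9.93 and 10.4 CPM and then 23.6, 21.5 and 20.6 CPM (log2 1.06 ± 0.27, edgeR adjusted p = 0.13). Both genes had separate groups. Without injured male 3, whose spread enters the shared estimate, Cyp2j6 and Cyp2s1 passed (edgeR adjusted p = 0.0282 and 0.0474), as did Cyp4b1, which was lower (log2 -0.46 ± 0.09, edgeR adjusted p = 0.0317), while 2.59% of all genes were called. Distal markers summed to 1771 to 2134 CPM in sham females and 5587 to 7255 CPM in injured females. With a distal marker score in the fit no member was called. The score did not overlap between these groups, so that fit cannot tell injury and the score apart.

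The test of whether injury acted differently in males and females called no member in tubules, beside 0.855% of all genes with edgeR. There were 9 members at an unadjusted p under 0.05 (4 higher and 5 lower), 17.6% of members beside 20% of all genes. DESeq2 called 3 members and 1317 of all genes. The median log2 difference in response was -0.27, and -0.09 over all genes. Besides Cyp2a5 and Cyp24a1, the values were -5.76 ± 1.60 for Cyp7b1 (edgeR adjusted p = 0.103), 1.67 ± 0.50 for Cyp4f17 (edgeR adjusted p = 0.122), -1.02 ± 0.34 for Cyp2j11 (edgeR adjusted p = 0.147), -0.49 ± 0.17 for Cyp2j5 (edgeR adjusted p = 0.151) and -1.37 ± 0.49 for Cyp51 (edgeR adjusted p = 0.167). The count was 1 without sham male 3 and 1 without injured male 1, and with a distal marker score in the fit it was 8. The difference in response was thus tested for these genes and did not pass, also where males gave a call and females did not.

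Without injured male 3 the same test called 16 members, 4 higher and 12 lower in the male response, beside 30.5% of all genes. The share of tested members called was close to that over all genes. Cyp4a10 differed by log2 -2.81 ± 0.33 (edgeR adjusted p = 0.000143), Cyp4a14 by -4.62 ± 0.64 (edgeR adjusted p = 0.000365), Cyp4a31 by -1.54 ± 0.23 (edgeR adjusted p = 0.000559) and Cyp4a32 by -2.70 ± 0.44 (edgeR adjusted p = 0.00101). The block of female-high Cyp4a genes was therefore lower with injury in 2 of 3 male samples and not in the third. Cyp4f17, Cyp2a5, Cyp24a1 and Cyp2s1 were the 4 higher calls in that fit.

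**Figure D5:**
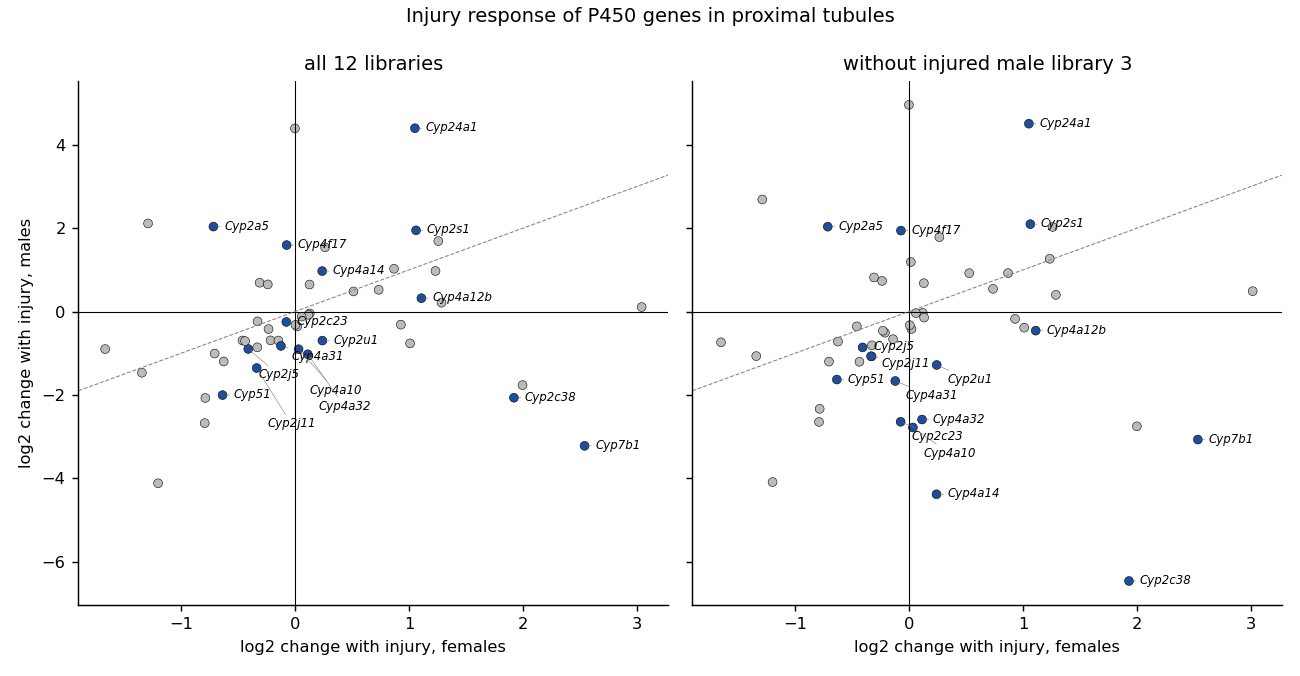
Log2 change with injury in females (x axis) and males (y axis) for each tested P450 gene in tubules, with all 12 libraries and without injured male library 3; blue points are the genes named, and the dashed line marks equal change. Cyp4a14 moves from 0.97 in males with all libraries to -4.38 without that library.

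The enzymes and receptors that serve P450s were read in the same comparisons. With injury in males, where 19.0% of all genes were called, 1 of 11 electron transfer partners and epoxide hydrolases was higher (Cyb5r3, log2 0.43 ± 0.12, edgeR adjusted p = 0.0323) and 3 were lower, led by Cyb5b (-0.97 ± 0.22, edgeR adjusted p = 0.0161) and Pgrmc2 (-0.47 ± 0.14, edgeR adjusted p = 0.0426). Of 9 genes of heme synthesis and breakdown, the heme oxygenase Hmox1 was higher (2.60 ± 0.38, edgeR adjusted p = 0.00244), and Uros (-1.28 ± 0.28, edgeR adjusted p = 0.0134) and Alad (-0.60 ± 0.17, edgeR adjusted p = 0.0351), both heme synthesis enzymes, were lower. Of 19 transcription factors and receptors that control P450 genes, 1 was higher and 4 were lower, among them the oestrogen receptor Esr1 (-1.83 ± 0.26, edgeR adjusted p = 0.00217), the growth hormone receptor Ghr (-0.91 ± 0.17, edgeR adjusted p = 0.00605) and the bile acid receptor Nr1h4 (-0.74 ± 0.18, edgeR adjusted p = 0.0188). Of 4 targets of the aryl hydrocarbon receptor, Nfe2l2 was higher (1.95 ± 0.41, edgeR adjusted p = 0.0113). The P450s with other symbols, Ptgis and Tbxas1, gave no call.

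Between sham males and sham females, where 5.80% of all genes were called, 2 of 11 partners were higher and 1 lower in males. The epoxide hydrolase Ephx2 was higher (1.09 ± 0.17, edgeR adjusted p = 0.00282), and the heme-binding protein Pgrmc1 was lower (-0.99 ± 0.19, edgeR adjusted p = 0.00926). Of the 19 regulators 2 were higher, among them Esr1 (2.22 ± 0.27, edgeR adjusted p = 0.000549), and 3 lower, led by the prolactin receptor Prlr (-5.08 ± 0.69, edgeR adjusted p = 0.0012) and the xenobiotic receptor Nr1i2 (-2.90 ± 0.52, edgeR adjusted p = 0.00706). Among the PPARA targets the fatty acid binding protein Fabp1 was lower (-6.34 ± 1.63, edgeR adjusted p = 0.0439), and Nsdhl was the 1 call of 14 cholesterol genes (0.78 ± 0.14, edgeR adjusted p = 0.00571). Heme, aryl hydrocarbon receptor and phosphate lists gave no call.

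In injured tubules 23.3% of all genes were called between the sexes, and the lists held 4 partners higher and 3 lower, 1 heme gene higher and 3 lower, 2 regulators higher and 4 lower, 1 vitamin D control gene higher and 2 lower, 4 PPARA targets higher and 1 lower, 3 of 4 aryl hydrocarbon receptor targets higher and 2 cholesterol genes lower. Among these calls were Casr (-2.16 ± 0.19, edgeR adjusted p = 9.25e-05), Hmox1 (3.27 ± 0.39, edgeR adjusted p = 0.000538), Plin2 (4.11 ± 0.54, edgeR adjusted p = 0.000887), Cyb5r3 (0.83 ± 0.12, edgeR adjusted p = 0.00153), Prlr (-4.33 ± 0.66, edgeR adjusted p = 0.0018) and Nfe2l2 (1.59 ± 0.41, edgeR adjusted p = 0.0177). The thromboxane synthase Tbxas1 was lower (-2.62 ± 0.48, edgeR adjusted p = 0.00432). With injury in females only Casr was called in these lists (1.67 ± 0.18, edgeR adjusted p = 0.0267). The response differed between the sexes for Casr, Plin2, Esr1, Kl and Nsdhl (-2.26 ± 0.26, 4.02 ± 0.70, -2.09 ± 0.37, -1.42 ± 0.27 and -0.94 ± 0.19), with edgeR adjusted p from 0.00341 to 0.0476. Distal markers summed to 1771 to 2134 CPM in sham females and 5587 to 7255 CPM in injured females. In males they summed to 1522 to 3272 CPM (sham) and 2017 to 5137 CPM (injured). The part of distal tubule RNA in the Casr values was not tested.

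In the CD31 isolates the sham sex difference gave 4 calls among 56 tested members, all higher in males (7.14%), beside 0.432% of 19910 genes. The median of the members was -0.18 and of all genes 0. Cyp2j13 read 534, 610.0 and 276 CPM in sham males and 0.0501 and 0.775 CPM in the 2 sham females (log2 10.30 ± 0.94, edgeR adjusted p = 0.000725). Cyp2e1 read 2386, 2765 and 1163.5 CPM against 93.3 and 80.2 CPM (log2 4.60 ± 0.44, edgeR adjusted p = 0.000849). Sham male isolate 3 was the lowest male for both. Cyp2d9 (7.63 ± 1.04, edgeR adjusted p = 0.00862) and Cyp4a12a (5.21 ± 0.80, edgeR adjusted p = 0.0192) were the other calls, and both were lost when either sham female library was left out. Cyp4b1 at 2475 to 5652 CPM against 638 and 978 CPM was separate without passing (2.43 ± 0.48, edgeR adjusted p = 0.0608).

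All 4 genes were also called in the sham tubules, and proximal tubule markers in these isolates reached 10740 to 19570 CPM in sham males and 17480 to 23330 CPM in sham females. The values therefore hold tubule RNA, and their share from endothelial cells was not tested. With a proximal tubule marker score in the fit, 5 members were called. Without either sham female library 2 members were called, and without injured male isolate 2 there were 7.

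In injured isolates 4 members were higher and 6 lower in males (10 of 56, 17.9%), beside 1.50% of all genes, and the median was -0.21 against 0.02. The share of recurring calls was not computed over all genes in the isolates. The 4 sham calls were all called again in the same direction, which is 100% of the sham calls and 40.0% of the injured calls. They were Cyp2j13 (7.76 ± 0.69, edgeR adjusted p = 0.000437), Cyp2e1 (3.05 ± 0.34, edgeR adjusted p = 0.00169), Cyp2d9 (5.43 ± 0.77, edgeR adjusted p = 0.00697) and Cyp4a12a (3.53 ± 0.61, edgeR adjusted p = 0.0191). Cyp2d26 was lower, at 9.54, 15.6 and 19.0 CPM in males and 187, 151 and 217 CPM in females (-3.65 ± 0.38, edgeR adjusted p = 0.0011), as was Cyp2j11, at 45.7, 43.7 and 30.2 CPM against 242, 258 and 186 CPM (-2.52 ± 0.32, edgeR adjusted p = 0.00391). These groups were well apart. Cyp2d22 (-1.73 ± 0.22, edgeR adjusted p = 0.00444), Cyp51 (-1.91 ± 0.34, edgeR adjusted p = 0.0211), Cyp2d12 (-3.16 ± 0.61, edgeR adjusted p = 0.0285) and the family 4 gene Cyp4f14 (-2.84 ± 0.61, edgeR adjusted p = 0.049) completed the list.

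With a proximal tubule marker score in the fit, 3 of these 10 calls held, and without injured female isolate 2 or 3 there were 6 and 5. Those markers summed to 7048 to 7780 CPM in injured males and 14830 to 18730 CPM in injured females. The score did not overlap between these groups either, so this fit cannot tell sex and the score apart.

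Injury in male isolates gave 1 higher and 3 lower members (4 of 56, 7.14%), beside 0.864% of all genes, with a median of -0.37 against -0.02. Cyp2s1 read 17.1, 17.0 and 18.9 CPM in sham males and 40.0, 44.4 and 35.2 CPM in injured males (1.17 ± 0.19, edgeR adjusted p = 0.024). Cyp2j11 read 179, 182 and 82.9 CPM and then 45.7, 43.7 and 30.2 CPM (-1.89 ± 0.31, edgeR adjusted p = 0.0246). Cyp51 read 296, 448 and 186 CPM and then 89.8, 77.3 and 59.6 CPM (-2.04 ± 0.34, edgeR adjusted p = 0.0265). All 3 genes had separate groups and were called in the same direction in male tubules. Cyp2d26 was the fourth call (-1.84 ± 0.35, edgeR adjusted p = 0.0422). With a proximal tubule marker score in the fit no member was called. Those markers summed to 10740 to 19570 CPM in sham males and 7048 to 7780 CPM in injured males. The score did not overlap between these groups either, so this fit cannot tell injury and the score apart. Without sham male isolate 1 or 2 or injured male isolate 1 the count was 0, without injured male isolate 3 it was 1, and without sham male isolate 3 it was 8.

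Cyp24a1 in these isolates read 14.3, 6.02 and 4.26 CPM in sham males and 97.3, 159 and 121 CPM in injured males, separate but not called (3.94 ± 1.23, edgeR adjusted p = 0.16). Cyp4f18, which inactivates leukotriene B4 in mouse neutrophils, read 0.0480 to 0.285 CPM and then 0.681 to 1.35 CPM (2.93 ± 0.79, edgeR adjusted p = 0.109). Beside it, the 7 neutrophil markers summed to 12.04 to 110.8 CPM in injured males and at most 11.1 CPM in the other isolates, and their part was not tested. Cyp21a1, an enzyme of adrenal steroid synthesis, was at 0.699, 0 and 0.422 CPM in injured males and 0 in all sham males. This is at least 15.4-fold higher on a mean of 0.374 CPM, but it did not pass (edgeR adjusted p = 0.258). The 6 adrenal cortex markers, which include Star and Nr5a1, summed to 22.4 to 44.7 CPM in injured males and 12.1 to 28.4 CPM in sham males, ranges that overlap, and their part was not tested.

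Injury in female isolates gave no call, beside 0% of all genes with edgeR. At an unadjusted p under 0.05 there was 1 member (1.79%, beside 2.39% of all genes), and DESeq2 called 0 (29 of all genes). Nor did the test of a sex difference in the response give a call, where 0% of all genes were called. In it 11 members had an unadjusted p under 0.05 (3 higher and 8 lower), 19.6% beside 6.5% of all genes. DESeq2 called 0 (49 of all genes). Cyp4a14 in isolates read 1412 and 2768 CPM in sham females, 44.3, 122 and 61.9 CPM in sham males, 4442, 1391 and 2306 CPM in injured females and 45.8, 1.03 and 356 CPM in injured males. The sexes were again separate in both conditions.

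Between sham isolates and sham tubules, with equal weight to each sex, 9 members were higher and 1 lower in the isolates (10 of 58 tested, 17.2%), beside 12.3% of 21206 genes. The median of the members was -0.15 and of all genes 0. Cyp1b1, an oestrogen-metabolising target of the aryl hydrocarbon receptor, read 3.02 to 5.85 CPM in the 5 isolates and 0.0642 to 1.53 CPM in the 6 tubule samples (2.40 ± 0.63, edgeR adjusted p = 0.016). Cyp26b1, which breaks down retinoic acid, read 5.13 to 50.4 CPM and 0 to 9.40 CPM (2.49 ± 0.72, edgeR adjusted p = 0.0274), and its groups overlapped. Cyp27b1 was the 1 lower call, at 0.625 to 1.76 CPM and 1.76 to 7.06 CPM (-1.46 ± 0.40, edgeR adjusted p = 0.0212), where the ranges met. The count was 5 without sham female isolate 1 and 6 without sham male isolate 3.

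Cyp2j6 (0.76 ± 0.12, edgeR adjusted p = 0.000278) and Cyp20a1, whose substrate is unknown (0.83 ± 0.17, edgeR adjusted p = 0.00234), were called under all 20 alternatives. Cyp4f16 (0.90 ± 0.21, edgeR adjusted p = 0.00703), Cyp2s1 (0.66 ± 0.17, edgeR adjusted p = 0.0151) and Cyp39a1 (1.03 ± 0.31, edgeR adjusted p = 0.0354) were higher at moderate levels. Cyp8b1 and Cyp2b23 (edgeR adjusted p = 0.0247 and 0.0449) did not reach 1 CPM in any library. Distal and podocyte markers were also higher in the isolates (podocyte sums as given above, distal sums 7740 to 15950 CPM against 1584 to 7585 CPM), and their part was not tested. Of the other lists, the epoxide hydrolase Ephx1 (2.16 ± 0.29, edgeR adjusted p = 0.000102) and Casr (2.45 ± 0.28) were higher in isolates, and Hmox1, Nr1h4 and Acadm were among the lower ones.

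Several textbook P450 groups were nearly absent. Family 1 genes summed to at most 1.77 TPM in any library, subfamily 3A genes to at most 0.998 TPM and steroid hormone enzymes to at most 1.09 TPM. Cyp1a1, the classical aryl hydrocarbon receptor target, stayed between 0 and 1.59 CPM in tubules, and Cyp11a1, the first enzyme of steroid synthesis, between 0 and 0.124 CPM. In the fits on all libraries no injury or sex comparison called a member of family 1, subfamily 3A, the retinoic acid group or the steroid hormone group. Few were tested in tubules: 2 of 3 in family 1, 1 of 9 in 3A, 1 of 3 retinoic acid and 1 of 6 steroid genes. Without injured male 3, Cyp1a1 was lower in injured males than injured females (log2 -3.87 ± 1.35, edgeR adjusted p = 0.0372), beside 44.1% of all genes called.

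The authors' deposited tables, made with DESeq2, list 65 members. They call more members than edgeR in 7 of the 8 comparisons. The shares beside each count are of all genes with an adjusted p in those tables. Injury in male and female tubules gave 13 and 2 members (22.8% and 2.50%). Sex in sham and injured tubules gave 20 and 26 (8.74% and 24.9%). Injury in male and female isolates gave 11 and 0 (5.3% and 0.316%). Sex in sham and injured isolates gave 9 and 19 (2.02% and 5.8%). No member called both here and in the authors' deposited tables had opposite signs in them. Signs of members called only here were not compared. Of the members called here, 10, 12, 20, 4, 4 and 10 were called in the authors' deposited tables for male tubule injury, sham and injured tubule sex, male isolate injury, and sham and injured isolate sex.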

How the data were processed

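Transcripts were quantified with Salmon 0.13.1 and build GRCm38, per the submitters' processing notes; libraries were poly(A)-selected and read for 75 cycles, per the labels' protocols. The deposited values are estimated counts and TPM per transcript, one file per library. The authors' deposited comparison tables give log2 fold changes and adjusted p-values from DESeq2. Strand handling is not given in the sources used here. Transcript estimates were summed per gene and rounded. Genes passing filterByExpr (minimum count 10, total 15) were fitted with edgeR 4.0.16 (R 4.3.3, limma 3.58.1): TMM scaling, 1 mean per group, quasi-likelihood test, Benjamini-Hochberg over all genes. Tubule and CD31 samples were fitted separately, and together for sham isolates against sham tubules. CPM are TMM-normalised within each fit. DESeq2 1.42.0 was an alternative. Nothing beyond the labels shows that samples are separate animals, so p-values measure the spread between these samples. The 2 libraries of sham male tubule sample 3 differed by a chi-square ratio (statistic over degrees of freedom) of 229. Other replicate pairs ran from 23.4 to 537, the highest being sham male 2 with the first of these libraries. The second library gave 91.1 and 88.9 with sham males 1 and 2, which gave 36 with each other. Near-identical members can share reads, and 32 of 100 had fewer than 90% of their 75-base windows unique. On simulated data the male injury comparison recovered 30.0% (tubule, 17741 genes) and 6.00% (isolates) of log2 changes of 1. It recovered 88.0% and 77.0% of changes of 2. Changes were put only into genes above a minimum mean CPM, and all other genes were left unchanged between groups. These shares need not hold for members with few reads or where many genes change. Named genes are every called member, or the 6 largest rises and falls where over 12 were called, the 8 highest in TPM, and a list of textbook members, with up to 3 genes per pathway list. Members, lists and alternatives were chosen with earlier results of these data known. Promoters are RefSeq, read from a table of build GRCm38.p6. Values of some genes of the pathway lists are not reported here.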

Additional observations from a re-analysis of the deposited data

How the results depend on the processing

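Counts of called P450 members moved by more than 1.5 times under these settings; the cause was not tested except where fewer samples or another filter are the setting itself. With only the compared groups in the fit, the counts were 1 for injury in male tubules, 8 in female tubules, 13 for sex in injured tubules and 0 for injury in male isolates. DESeq2 gave 3 for injury in female tubules, 3 for the tubule difference in response, 11 for injury in male isolates, 10 and 19 for sex in sham and injured isolates and 17 for isolates against tubules. Over all genes DESeq2 called 606, 1317, 1158, 370, 1088 and 3532 in the same comparisons, in that order. Without a low-count filter the counts were 2 for the tubule difference in response, 10 for injury in male isolates, 11 and 18 for sex in sham and injured isolates and 1 for the difference in response in isolates. Length offsets gave 1 for injury in male isolates. The distal marker score gave 8 for the tubule difference in response. Injured females lay above all other tubule samples in that score. The proximal tubule marker score gave 0 for injury in male isolates and 3 for sex in injured isolates. In both comparisons the score did not overlap between the groups, so its part cannot be told apart from theirs. Without both sham male 3 and injured male 3, a setting chosen after seeing the data, the tubule counts were 22 for injury in males, 7 in females, 19 and 29 for sex in sham and injured mice and 14 for the difference in response. Without injured male tubule 3 and injured male isolate 2, also chosen so, isolates against tubules gave 17. The split into higher and lower calls under length offsets was 4 and 5 for injury in male tubules, 4 and 4 for sex in injured isolates, 0 and 1 for injury in male isolates and 7 and 2 for isolates against tubules.

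Leaving out 1 library at a time, the counts ranged from 5 to 21 for injury in male tubules, 0 to 3 in female tubules, 8 to 21 and 12 to 26 for sex in sham and injured tubules, 0 to 16 for the tubule difference in response, 0 to 8 for injury in male isolates, 2 to 7 and 5 to 12 for sex in sham and injured isolates and 5 to 11 for isolates against tubules. They stayed at 0 for injury in female isolates and for the difference in response in isolates. Of 1089 values of called genes under the alternatives, 865 kept their direction and call, 223 kept their direction without passing, and 1 reversed. The last was Cyp2d12 between injured males and females with the distal marker score (log2 0.037), which did not overlap between these groups.

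With the replicate number as a block, injury in male isolates gave 2 calls, and the other counts stayed within 1.5 times. Correlations of same-numbered samples ran from -0.0665 to 0.176 in tubules and from -0.282 to 0.248 in isolates. Between a tubule and an isolate sample they ran from -0.43 to 0.575 (3 of 11 above 0.1). Injured males 1, 2 and 3 gave -0.43, 0.369 and 0.575. Low correlations do not show that samples came from separate mice, so whether the numbers pair the samples is not known. Members under 1 CPM rest on few reads.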

Other observations

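Sample titles hold a number in brackets that recurs in a tubule and a CD31 sample of the same group, except for sham female tubule sample 3, without a statement of what it marks. Injured males 1, 2 and 3 read 2.83, 5.23 and 487 CPM of Cyp4a14 in tubules, and the samples with the same bracket numbers read 45.8, 1.03 and 356 CPM in isolates. For Cyp4a10 the tubule values were 66.9, 63.6 and 588 CPM and the isolate values 336, 19.5 and 469.7 CPM. The third sample was highest in both isolations for both genes. The lowest was sample 2 in both isolations for Cyp4a10, and for Cyp4a14 sample 1 in tubules and sample 2 in isolates. For Cyp2a5 the tubule values were 49.4, 226 and 139 CPM and the isolate values 891, 7.88 and 162 CPM, so the order of samples 1 and 2 was the opposite in tubules and isolates. The isolates and tubules were scaled in separate fits, so only the order within each set can be compared.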
